A study of Mus musculus with 18 samples.

Results

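Immediate early genes are switched on within minutes of a stimulus, before new protein is made, and most of their transcripts are short lived. Kinases that run from membrane receptors to the nucleus act on factors already bound at these genes, such as CREB at the cAMP response element and serum response factor at the CArG box. In sensory neurons they are known as markers of recent activity, and some members of the same families are known injury response genes. Here 10 of them, chosen by name, were followed: the AP-1 subunits Fos, Fosb and Junb, the zinc finger factors Egr1 and Egr3, the nuclear receptor Nr4a1, the synaptic gene Arc, the nuclear protein gene Ier2, the MAP kinase phosphatase Dusp1 and the antiproliferative gene Btg2. Of these, 8 of 10 stood among the 15730 genes of the deposited count table. Fosb and Egr3 did not, but all 10 stood among the 45904 features of a second deposited table, of FPKM, in which reads are scaled by transcript length and by library depth.

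RNA was sequenced from sciatic dorsal root ganglia, where the cell bodies of sensory neurons lie next to the cord, of C57BL/6 mice 6 to 8 weeks old, 24 h after surgery. SNA_Saline was sciatic nerve axotomy with saline, and Sham_Saline was the sham operation with saline. SNA_NAC was the same axotomy with N-acetyl-cysteine at 30 mM, an antioxidant that carries a thiol, and Sham_H202 (the labels' spelling, for hydrogen peroxide) was the sham operation with 13 mM H2O2. DCA was axotomy of the dorsal columns, the spinal tract of the same neurons' central branches, and LAM was laminectomy, the removal of bone that opens the way to the cord. Each of the 6 groups had 3 samples, and each sample was a pool from 2 mice. The labels name no transgene or deletion, and ganglia without any surgery were not analysed here. A single time point was sampled, so an early rise that had ended by 24 h would not be seen. In a bulk sample, a change in the number of cells of a type and a change in RNA per cell cannot be told apart.

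Total counts ran from 6472476 to 42435331 per sample, and values are CPM, counts scaled to library size with TMM factors. Sensory neuron markers were abundant in all 18 samples, with a summed level of 19930 to 26409 CPM in Sham_Saline and 19479 to 20214 CPM in SNA_Saline. No marker of the 12 sensory neuron genes was at 0 in any sample. Sham_Saline replicate 2 stood apart. Its skeletal muscle markers (10 genes) summed to 1864 CPM, against 244 and 141 CPM in the other Sham_Saline samples and 149 to 552 CPM in SNA_Saline. Its slope of expression on the GC share of transcripts was the highest of the 18 samples, at 0.431 log2 CPM per SD of GC, against a range down to -0.219. Beside the main comparisons with Sham_Saline, values or calls without that sample are therefore given as well.

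Of the 10 genes, 6 had a promoter record from RefSeq (build GRCm38.p6), of which the 250 bases before the start site were read. The full cAMP response element TGACGTCA, the site that CREB family factors bind, is shown first because Dusp1 and Btg2 held it and were also the members that passed the test after sciatic axotomy below. It was thus picked with that result known, and Egr1, Arc and Ier2, which did not pass, had no promoter record. The capitals mark the full element and the short site TGACG on either strand. Sequences run 5′ to 3′ on the strand of the gene. The Dusp1 window is chr17:26508473-26508722 and the Btg2 window is chr1:134079156-134079405, both on the minus strand. Gene spans given below are from GENCODE M21. The Dusp1 window lies inside that gene's span, so the RefSeq start used here is not the span's 5′ end.
Dusp1: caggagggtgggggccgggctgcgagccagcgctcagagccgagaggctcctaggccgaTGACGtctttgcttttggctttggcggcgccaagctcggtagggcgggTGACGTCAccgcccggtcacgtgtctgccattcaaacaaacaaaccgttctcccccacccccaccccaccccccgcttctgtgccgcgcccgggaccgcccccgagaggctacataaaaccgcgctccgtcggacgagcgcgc
Btg2: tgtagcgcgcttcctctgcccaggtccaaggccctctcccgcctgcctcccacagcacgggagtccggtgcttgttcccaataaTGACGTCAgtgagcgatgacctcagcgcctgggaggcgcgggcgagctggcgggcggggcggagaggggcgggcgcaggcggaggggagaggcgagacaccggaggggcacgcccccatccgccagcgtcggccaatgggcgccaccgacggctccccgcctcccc
The other 4 members with a record held the short site only: Fos had 2 such sites, Nr4a1 had 4, and Fosb and Junb had 1 each. A 60-base stretch is printed for each, which does not show every site of Fos and Nr4a1. The stretches are Fos at chr12:85473796-85473855 (plus strand), Fosb at chr7:19310074-19310133 (minus), Junb at chr8:84978823-84978882 (minus) and Nr4a1 at chr15:101266764-101266823 (plus). The Nr4a1 stretch also lies inside that gene's span given below.
Fos: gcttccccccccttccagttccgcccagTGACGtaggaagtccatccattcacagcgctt
Fosb: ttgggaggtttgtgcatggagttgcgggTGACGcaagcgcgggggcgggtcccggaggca
Junb: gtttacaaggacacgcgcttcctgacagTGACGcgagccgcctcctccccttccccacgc
Nr4a1: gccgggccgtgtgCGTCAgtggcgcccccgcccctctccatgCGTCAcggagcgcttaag

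The full element was found in 2 of these 6 windows, against 1.55% of all 32851 promoter windows of the same length. Counted per gene, 2.94% of the 11364 tested genes with a window held it in any of their windows. The short site, which the full element contains, was found in 6 of 6 windows, against 17.8% of all promoter windows and, per gene, 29.1% of tested genes. Among the 249 genes with a window that were higher after sciatic axotomy, 10 held the full element (4.02%). The windows compared were not matched for GC share, which ran from 58.4% to 74.4% in the 6 member windows. The AP-1 site TGANTCA was in none of the 6 windows (6.75% of all promoter windows, 5.62% of tested genes), and the CArG box was in none (1.47% and 1.4%). The EGR site GCGNGGGCG was in Btg2, Fosb and Nr4a1 (4.7% of all promoter windows, 10.1% of tested genes), and TATAAA was in Fos (12.4% and 8.47%). All motifs were searched on both strands. A match describes letters in a window of 250 bases and no more. A site outside the window would not be seen, and Egr1, Egr3, Arc and Ier2 had no record to search.

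Compared per length over all 18 samples, the 10 genes are given in order of their median. Ranges of neighbours in that order overlapped, except those of Dusp1 and Btg2. Nr4a1 (median 9.68 FPKM, range 7.42 to 14.3) and Dusp1 (8.71 FPKM, 6.88 to 13.8) were highest, above 66.6% and 64.3% of the genes in the count table. Btg2 followed at 4.16 FPKM (2.83 to 5.98), a range that overlapped neither Nr4a1 nor Dusp1. Egr1 (2.02 FPKM) and Fos (1.87 FPKM) had overlapping ranges, as did Ier2 (0.911 FPKM), Junb (0.753 FPKM) and Arc (0.752 FPKM). Egr3 (0.228 FPKM, 0 to 0.477) and Fosb (0.105 FPKM, 0.0535 to 0.178) were lowest, above 3.4% and 0.5% of the genes in the count table. Fos and Egr1, the best known activity markers of the set, stood above 30.2% and 31.7% of those genes.

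After sciatic axotomy with saline, Dusp1 and Btg2 were higher than after the sham operation, by 1.64-fold and 1.52-fold, and the other 6 members of the count table did not pass the test. Dusp1 encodes a phosphatase that switches off MAP kinases, and Btg2 encodes a protein that restrains cell division and promotes shortening of poly(A) tails. The comparison asks how ganglia respond to injury of the peripheral branch. The test was edgeR's quasi-likelihood test over all 15730 genes, with Benjamini-Hochberg adjustment and a threshold of 0.05. By this test 2 of 8 members were higher and 0 lower, against 2.16% of all genes higher and 0.572% lower. The same 2 members were called without Sham_Saline replicate 2, when 1.31% of all genes were higher and 0.172% lower.

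Dusp1 (ENSMUSG00000024190, GRCm38 chr17:26505590-26562128, minus strand) stood at 18.5, 25.0 and 21.4 CPM in Sham_Saline and at 38.3, 36.6 and 31.6 CPM in SNA_Saline (replicates 1, 2 and 3). Each injured sample lay above each sham sample. The log2 fold change was 0.71 (SE 0.12) with an edgeR adjusted p of 0.001902. Within the 3 sequencing lanes, which each held 1 sample of each group, the log2 differences were 1.04, 0.55 and 0.56. Without Sham_Saline replicate 2 the value was 0.83 (edgeR adjusted p = 0.0008085), and the call held without any 1 of the 6 samples. Ergic1, which overlaps Dusp1 on the opposite strand, had a log2 fold change of -0.12 (SE 0.077, edgeR adjusted p = 0.3408). Annotated pseudogenes lie within Dusp1's span as well. Whether counting used strand is not given in the sources used here, so reads of the overlapping genes cannot be told apart.

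Btg2 (ENSMUSG00000020423, chr1:134075170-134079120, minus strand) stood at 9.63, 11.96 and 11.5 CPM in Sham_Saline and at 16.8, 16.97 and 16.4 CPM in SNA_Saline. The groups did not overlap, as for 10.3% of all genes in this direction. The log2 fold change was 0.60 (SE 0.13) with an edgeR adjusted p of 0.02121, and the log2 differences within lanes were 0.80, 0.50 and 0.51. Without Sham_Saline replicate 2 it was 0.67 (edgeR adjusted p = 0.0378). The call was lost without SNA_Saline replicate 1 (edgeR adjusted p = 0.09811) or replicate 2 (0.09195), with nearly the same size, 0.60 and 0.59. With only these 2 groups in the fit both calls were lost, at edgeR adjusted p of 0.2059 for Dusp1 and 0.2689 for Btg2.

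**Figure D1:**
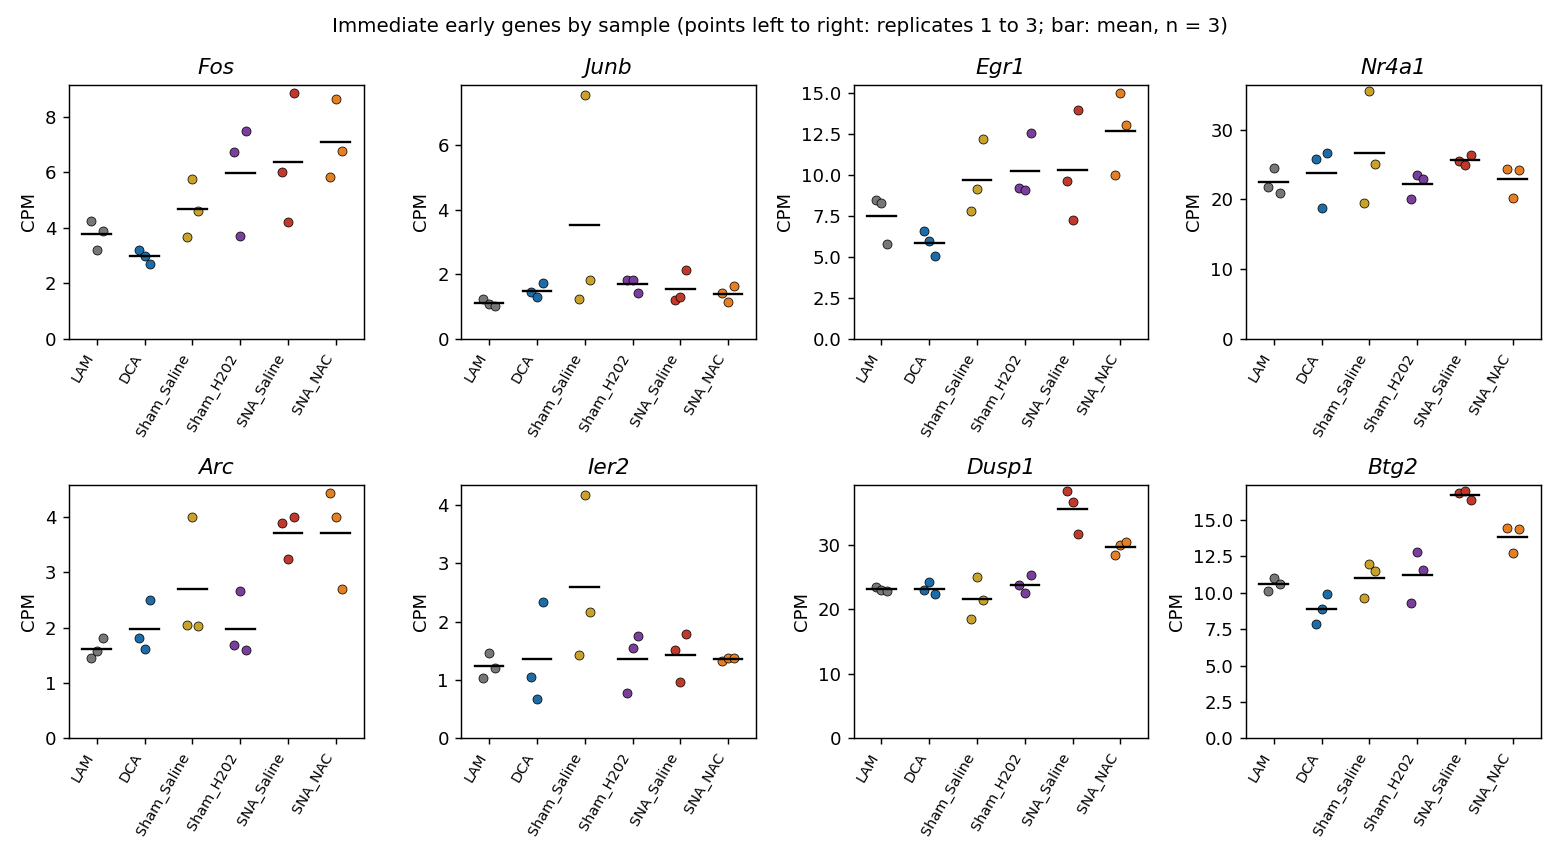
Level of each of the 8 members in the count table, in CPM on linear axes from 0, by group; points are the 3 samples of a group (replicates 1 to 3 from left to right) and the bar is their mean. Dusp1 and Btg2 stand higher in SNA_Saline than in the other groups, and single Sham_Saline samples stand high for Junb (7.54 CPM) and Ier2 (4.17 CPM).

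The AP-1 members did not pass the test. Fos (ENSMUSG00000021250, chr12:85473890-85477273, plus strand), the partner that joins JUN proteins in AP-1, stood at 3.67, 5.77 and 4.61 CPM in Sham_Saline and at 6.00, 4.22 and 8.84 CPM in SNA_Saline. The lowest injured sample lay below 2 of the 3 sham samples. The log2 fold change was 0.45 (SE 0.28, edgeR adjusted p = 0.3199), with 0.69, -0.44 and 0.92 within lanes. It was 0.64 without Sham_Saline replicate 2 (edgeR adjusted p = 0.4465), and leaving out 1 sample at a time it ran from 0.14, without SNA_Saline replicate 3, to 0.65.

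Junb (ENSMUSG00000052837, chr8:84974484-84978718, minus strand), an AP-1 partner of Fos, stood at 1.24, 7.54 and 1.83 CPM in Sham_Saline, from 26, 179 and 27 reads. In SNA_Saline it stood at 1.19, 1.297 and 2.14 CPM. One sham sample was thus above all others of the series, and the remaining values overlapped. The log2 fold change was -1.21 (SE 0.49, edgeR adjusted p = 0.1776). Without Sham_Saline replicate 2 it was 0.04 (edgeR adjusted p = 0.9682), and without replicate 1, which left replicate 2 in a group of 2, it was -1.63 and passed the threshold (0.02607), as did 16.2% of all genes in that fit. Junb overlaps Prdx2 on the opposite strand, and Prdx2 stood at 294, 481 and 422 CPM in Sham_Saline.

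Among the factors of the EGR and NR4A families the sham and injured samples overlapped. Egr1 (ENSMUSG00000038418, chr18:34859823-34864984, plus strand) stood at 7.82, 9.14 and 12.2 CPM in Sham_Saline and at 9.63, 7.24 and 14.0 CPM in SNA_Saline, with a log2 fold change of 0.10 (SE 0.24, edgeR adjusted p = 0.8228) and 0.06 without Sham_Saline replicate 2. Nr4a1 (ENSMUSG00000023034, chr15:101254269-101274795, plus strand), an orphan nuclear receptor, stood at 19.4, 35.6 and 25.0 CPM in Sham_Saline and at 25.5, 25.0 and 26.3 CPM in SNA_Saline. Its log2 fold change was -0.06 (SE 0.18, edgeR adjusted p = 0.8502), and it turned to 0.21 without Sham_Saline replicate 2 and to 0.33 with GC and length offsets.

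Arc (ENSMUSG00000022602, chr15:74669083-74672570, minus strand), which encodes a protein that controls AMPA receptor traffic at synapses, stood at 2.05, 4.001 and 2.04 CPM in Sham_Saline and at 3.89, 3.24 and 3.99 CPM in SNA_Saline. Only Sham_Saline replicate 2 reached the injured samples. The log2 fold change was 0.45 (SE 0.28, edgeR adjusted p = 0.3305), and 0.87 without that replicate (edgeR adjusted p = 0.1769). With transcript GC share and length as offsets in the fit, Arc passed the test, at 0.95 (SE 0.19, edgeR adjusted p = 0.004967), as did 5.18% of all genes higher and 2.28% lower in that fit. On that adjusted scale the 3 SNA_Saline samples stood at 4.37, 4.18 and 3.55 CPM and the SNA_NAC samples at 4.36, 5.10 and 3.04 CPM. The other 12 samples ran from 1.76 to 2.36 CPM and overlapped none of these. In unadjusted CPM they did overlap, with Sham_Saline replicate 2 at 4.001 CPM and SNA_NAC replicate 3 at 2.70 CPM. The share of all genes split in this way on the adjusted scale was not computed.

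Ier2 (ENSMUSG00000053560, chr8:84661331-84662852, minus strand), a nuclear protein gene of the early serum response, stood at 1.43, 4.17 and 2.17 CPM in Sham_Saline and at 1.52, 0.973 and 1.78 CPM in SNA_Saline. Its log2 fold change was -0.84 (SE 0.42, edgeR adjusted p = 0.2388), and -0.28 without Sham_Saline replicate 2. Over the 8 members the median log2 fold change was 0.27, against -0.03 over all genes, and 5 of 8 were fitted higher. That median rested on single samples: it was 0.42, with 7 of 8 fitted higher, without Sham_Saline replicate 2, and ran from 0.029 to 0.424 over the fits that left out 1 sample.

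Fosb, the AP-1 subunit whose truncated form accumulates with repeated stimulation, and Egr3, an EGR factor needed for the making of muscle spindles, were read from FPKM. There the values are whole multiples of what 1 read is worth, and the reads recovered equalled the deposited counts for 8 of 8 members present in both tables and for 1729 of 1744 low genes, to within 0.001 of a read. Fosb (ENSMUSG00000003545, chr7:19302696-19310051, minus strand) had 145 reads in all 18 samples, a mean of 8.06 per sample with a range of 2 to 18. Egr3 (ENSMUSG00000033730, chr14:70077203-70082614, plus strand) had 128 reads, a mean of 7.11 with a range of 0 to 29. The lowest mean in the count table was 10.06.

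Fosb stood at 0.477, 0.674 and 0.543 CPM in Sham_Saline and at 0.396, 0.540 and 0.570 CPM in SNA_Saline. Egr3 stood at 0.667, 0.547 and 0.339 CPM in Sham_Saline and at 0.396, 0.649 and 0.499 CPM in SNA_Saline. Both pairs of groups overlapped, with log2 fold changes of -0.19 (SE 0.36, edgeR adjusted p = 0.765) and -0.09 (SE 0.53, edgeR adjusted p = 0.93), and of -0.03 and -0.07 without Sham_Saline replicate 2. At a few reads per sample, only large differences could be detected for these 2 genes. Fosb had its lowest group means in LAM, 0.276 CPM ± 0.110, and DCA, 0.282 CPM ± 0.0717, against 0.564 CPM ± 0.1003 in Sham_Saline (SD, n = 3). Egr3 had its lowest group means in LAM, 0.111 CPM ± 0.0482 from 1, 3 and 2 reads, in DCA, 0.169 CPM ± 0.146, and in Sham_H202, 0.194 CPM ± 0.233, against 0.518 CPM ± 0.166 in Sham_Saline. Neither passed the test in any of the 7 comparisons, and the smallest edgeR adjusted p was 0.105, for Egr3 between Sham_Saline and LAM. Leaving out Sham_Saline replicate 2 gave 2.25 (SE 0.74, edgeR adjusted p = 0.4604).

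**Figure D2:**
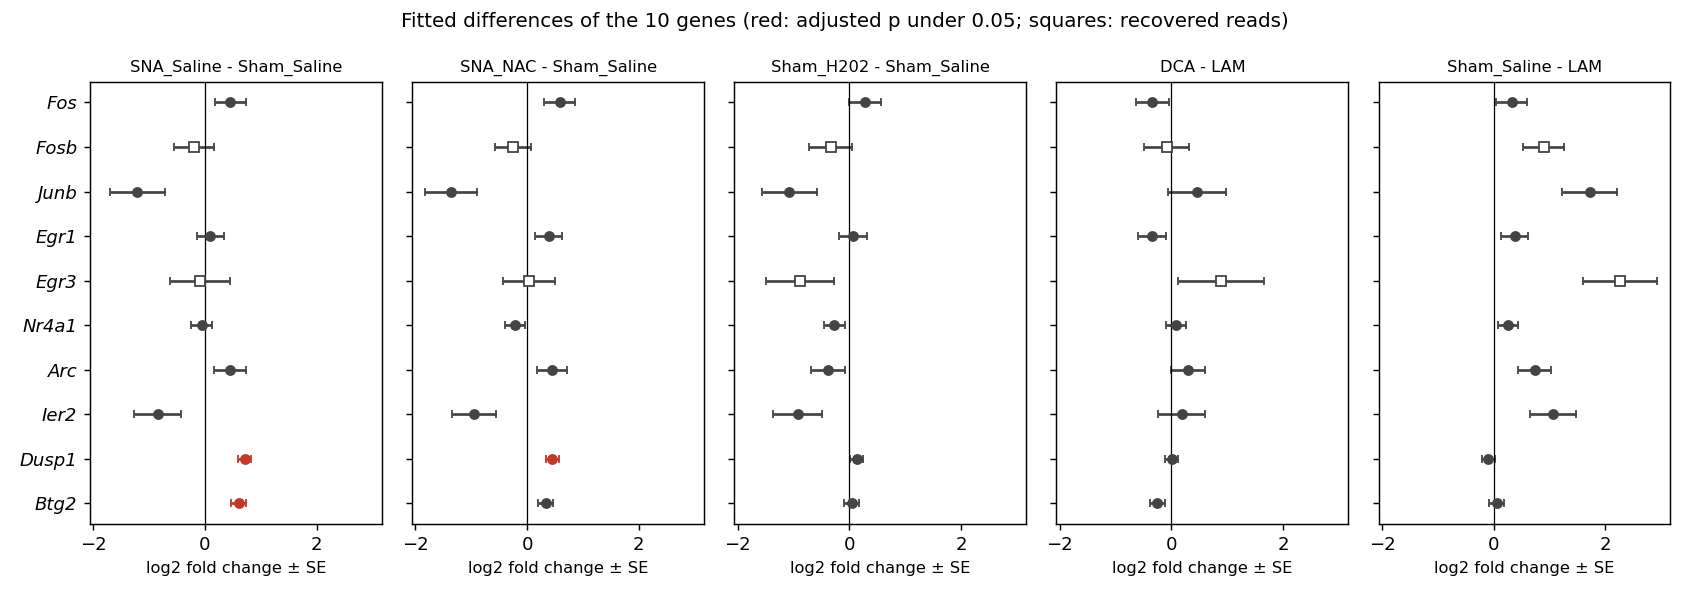
Fitted log2 fold changes (points) with their SE (bars) of all 10 members in 5 comparisons; circles are deposited counts, open squares are reads recovered from FPKM, and red marks an adjusted p under 0.05. Red points appear only in the comparisons of axotomized with sham ganglia, for Dusp1 (0.71 and 0.45) and Btg2 (0.60), and Junb and Ier2 carry the widest bars among the circles.

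With N-acetyl-cysteine at the nerve, axotomized ganglia held Dusp1 at 28.4, 30.0 and 30.4 CPM and Btg2 at 14.4, 12.8 and 14.4 CPM. Against Sham_Saline, 1 of 8 members was higher (Dusp1) and 0 lower, with 2.47% of all genes higher and 0.846% lower. The Dusp1 log2 fold change was 0.45 (SE 0.11, edgeR adjusted p = 0.04077), close to the threshold. It was lost with the lane as a block (0.45, edgeR adjusted p = 0.06281), with DESeq2's size factors in the edgeR fit, with only these groups in the fit, and without Sham_Saline replicate 3 (0.1012) or SNA_NAC replicate 1 (0.07328), 2 (0.1491) or 3 (0.1516). Without Sham_Saline replicate 2 it was 0.57 and held (0.01763). Btg2 had 0.33 (SE 0.13, edgeR adjusted p = 0.1368), and 0.40 (0.3123) without that sample. Fos stood at 5.83, 8.63 and 6.76 CPM, above each Sham_Saline sample (11.5% of all genes in this direction), with 0.58 (SE 0.27, edgeR adjusted p = 0.1756), and 0.77 (0.3523) without that sample. Dusp1 and Btg2 also lay above each Sham_Saline sample. Ier2, at 1.33 to 1.38 CPM, lay below each of them (9.68% of all genes in this direction), with -0.95 (SE 0.39, edgeR adjusted p = 0.1476), and -0.39 without Sham_Saline replicate 2. The median over the 8 members was 0.36, and 0.37 without that sample. Without Sham_Saline replicate 1 the count was 3 of 8, with Junb and Ier2 lower beside Dusp1, but 18.4% of all genes were then called higher and 18.9% lower. With GC and length offsets Arc passed beside Dusp1, at 0.99 (edgeR adjusted p = 0.002215), with 5.19% of all genes higher and 2.61% lower. This comparison and that of SNA_Saline share the Sham_Saline samples, so their values are not independent.

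The direct comparison of SNA_NAC with SNA_Saline asks whether the antioxidant changed the injured ganglia. By edgeR 0 of 8 members passed, as did 0% of all genes, and 1 of 8 had an unadjusted p under 0.05 (2% of all genes). DESeq2 and limma on FPKM also called 0. Dusp1 had a log2 fold change of -0.26 (SE 0.11, edgeR adjusted p = 0.9999), and Btg2 had -0.27 (SE 0.13, edgeR adjusted p = 0.9999). Each SNA_NAC sample of Dusp1, Btg2 and Nr4a1 lay below each SNA_Saline sample, which held for 5.63% of all genes. Fos (0.13, SE 0.27), Egr1 (0.29, SE 0.24) and Arc (0.00, SE 0.28) overlapped between the groups.

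Hydrogen peroxide with the sham operation gave no member that passed the test. By edgeR 0 of 8 were called, as were 0% of all genes, and 2 of 8 had an unadjusted p under 0.05 (9.15% of all genes). DESeq2 and limma on FPKM also called 0. Dusp1 stood at 23.7, 22.5 and 25.3 CPM (log2 fold change 0.13, SE 0.12), Btg2 at 9.31, 12.8 and 11.6 CPM (0.04, SE 0.14) and Fos at 6.72, 3.71 and 7.47 CPM (0.29, SE 0.29). Junb (-1.07) and Ier2 (-0.93) had the unadjusted p under 0.05, and without Sham_Saline replicate 2 these values were 0.18 and -0.36. Dusp1, Btg2 and Fos were then at 0.25, 0.11 and 0.47, and 0 members and 0% of all genes were called.

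Dorsal column axotomy was compared with laminectomy. Dusp1 stood at 23.5, 23.04 and 22.8 CPM in LAM and at 22.9, 24.2 and 22.3 CPM in DCA, a log2 fold change of 0.00 (SE 0.12, edgeR adjusted p = 0.9953). Btg2 stood at 10.1, 11.004 and 10.6 CPM in LAM and at 7.84, 8.88 and 9.91 CPM in DCA, with each DCA sample lower, as for 9.85% of all genes, and a log2 fold change of -0.26 (SE 0.14, edgeR adjusted p = 0.6243). Fos did not pass the test, at 4.24, 3.20 and 3.89 CPM in LAM and 3.20, 2.99 and 2.70 CPM in DCA (-0.34, SE 0.29). Junb stood at 1.24, 1.08 and 1.01 CPM in LAM and at 1.43, 1.28 and 1.73 CPM in DCA, each DCA sample higher, as for 11.9% of all genes, with a log2 fold change of 0.46 (SE 0.52, edgeR adjusted p = 0.6992). By edgeR 0 of 8 members were called, as were 0% of all genes, and 0 of 8 had an unadjusted p under 0.05 (5.04% of all genes). DESeq2 and limma on FPKM also called 0.

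The difference between the 2 injuries was tested as an interaction, the sciatic log2 fold change less the dorsal column one. By edgeR 2 of 8 members passed and both were higher, against 1.23% of all genes higher and 0.388% lower. Dusp1 differed by 0.71 (SE 0.16, edgeR adjusted p = 0.03858) and Btg2 by 0.86 (SE 0.19, edgeR adjusted p = 0.03496). With the lane as a block Dusp1 was no longer called (0.71, edgeR adjusted p = 0.069) and Btg2 was (0.0484). Both lay near the threshold: each lost its call in 9 of 12 fits that left out 1 sample, namely any LAM or DCA sample, SNA_Saline replicate 1 or 2, and Sham_Saline replicate 3 for Dusp1 or 2 for Btg2. The fitted differences in those 12 fits stayed between 0.61 and 0.83 for Dusp1 and between 0.77 and 0.95 for Btg2. With only these 4 groups in the fit neither was called, and with GC and length offsets both were, together with Arc (1.03, edgeR adjusted p = 0.04537), when 3.45% of all genes were higher and 1.64% lower. The differences without Sham_Saline replicate 2 were 0.83 for Dusp1 (edgeR adjusted p = 0.01854) and 0.93 for Btg2 (0.05537), with 0.515% of all genes higher.

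Both control operations were compared as well, Sham_Saline against LAM. By edgeR 0 of 8 members passed, against 0.0699% of all genes in either direction, and 3 of 8 had an unadjusted p under 0.05 (30.3% of all genes). DESeq2 called 1 (Junb) and limma on FPKM called 0. The share of all genes that DESeq2 called in this comparison is not given here, so whether Junb stood out from it cannot be read. Junb stood at 1.24, 1.08 and 1.01 CPM in LAM, and its log2 fold change was 1.72 (SE 0.50, edgeR adjusted p = 0.1044). Ier2 had 1.06 (SE 0.41, edgeR adjusted p = 0.1166) and Arc 0.73 (SE 0.30, edgeR adjusted p = 0.1234). Without Sham_Saline replicate 1 these 3 passed, as did 31.8% of all genes, and without replicate 2 they were 0.47, 0.50 and 0.31 with edgeR adjusted p of 0.4853, 0.5673 and 0.601.

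**Figure D3:**
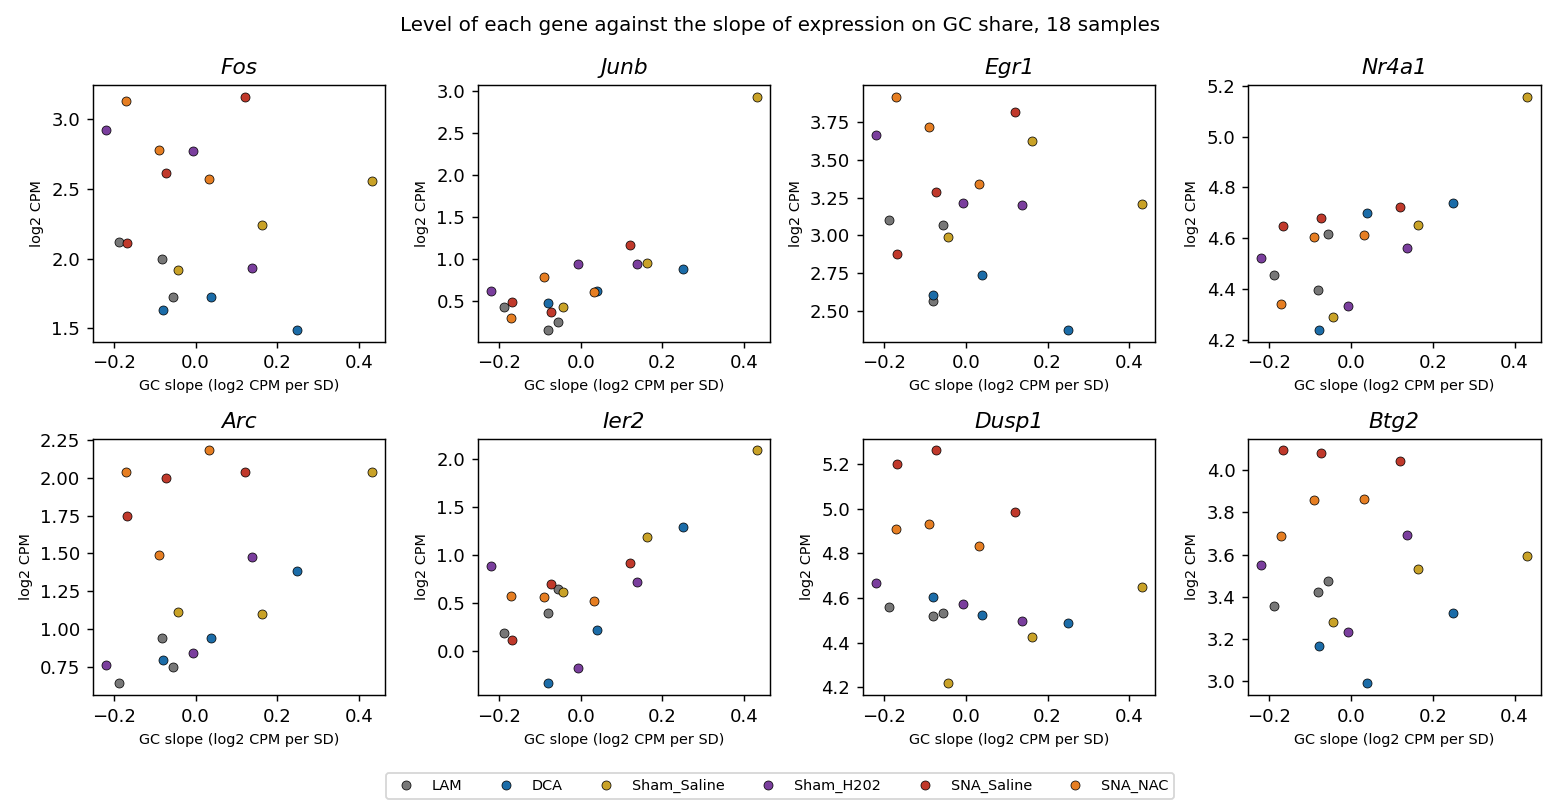
Level of each of the 8 members (log2 CPM, vertical axes) against the sample's slope of expression on GC share (log2 CPM per SD of GC, horizontal axes), 1 point per sample, coloured by group. Sham_Saline replicate 2, at 0.431, is the rightmost point and the highest for Junb, Nr4a1 and Ier2, and Dusp1 and Btg2 are highest in SNA_Saline at lower slopes.

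Sham_Saline replicate 2 was the highest Sham_Saline sample for 7 of the 8 members, and Egr1 was the exception. The longest transcripts of Junb, Ier2, Arc, Egr1 and Nr4a1 had a GC share of 62.6%, 60.9%, 59.0%, 57.3% and 57.0%, and those of Dusp1, Fos and Btg2 had 54.0%, 51.9% and 49.7%. With offsets for GC share and length, Nr4a1 in that sample was 21.7 CPM against 20.7 and 21.1 CPM in the other Sham_Saline samples. Ier2 was 2.08 CPM against 1.74 and 1.73 CPM. Junb was 3.54 CPM against 1.501 and 1.47 CPM, so it remained apart. Fos was 5.06 CPM against 4.07 and 4.39 CPM, and Egr1 was 5.64 CPM against 7.46 and 10.8 CPM. Dusp1 with these offsets had a log2 fold change after sciatic axotomy of 0.91 (edgeR adjusted p = 0.0005076) and Btg2 of 0.59 (0.003228). The part of the GC slope and of the muscle markers in that sample's levels was not tested.

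Across the 18 samples some pairs of members moved together, given here as a description. Fos and Egr1 had a Pearson r of 0.865 in log2 CPM (0.665 after group means were taken off). Dusp1 and Btg2 had 0.818, which was 0.265 after group means were taken off. Arc and Btg2 had 0.753 (0.48) and Arc and Dusp1 0.65 (0.121). Nr4a1 and Ier2 had 0.769 (0.802), Nr4a1 and Junb 0.74 (0.795) and Ier2 and Junb 0.697 (0.598). Other pairs crossed these: Ier2 and Btg2 had 0.235 (0.674), Arc and Ier2 0.42 (0.663) and Junb and Arc 0.36 (0.617). The pairs thus did not form separate sets. Over all pairs r ran from -0.078 to 0.865, and from -0.321 to 0.802 after group means were taken off. Sham_Saline replicate 2 was the highest of the 18 samples for Junb, Nr4a1 and Ier2, and its part in these r values was not tested. The 18 samples share lanes and differ in depth and GC slope. The genes whose level was most like the members' mean standardized level were Hn1 (r = 0.923), Prkcdbp (0.909), Midn (0.897), Chac1 (0.894), Ext2 (0.892), Pdlim1 (0.891), Atf4 (0.886) and Vgf (0.88) over 18 samples. After group means were taken off they were Rnps1 (0.934), Ybx3 (0.928), Ndrg2 (0.928), Mrps9 (0.926), Ccdc101 (0.925), Comtd1 (0.917), Uqcrq (0.917) and Ppie (0.914), and no gene was in both sets.

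Genes related to the members by family or pathway were followed in the same fit. These lists were chosen with earlier results of these data known. In SNA_Saline against Sham_Saline, 2.16% of all genes were higher and 0.572% lower. These shares were 2.47% and 0.846% in SNA_NAC against Sham_Saline, and 1.23% and 0.388% in the difference between injuries. Of 9 further AP-1 genes, 7 were tested and 3 were higher after sciatic axotomy with saline. Atf3, a bZIP factor known as a marker of axotomized sensory neurons, stood at 55.9, 72.6 and 59.4 CPM in Sham_Saline and at 449.8, 420.0 and 461.8 CPM in SNA_Saline. Its log2 fold change was 2.82 (SE 0.19, edgeR adjusted p = 1.55e-07). Jun, the partner of Fos in AP-1, stood at 57.9, 78.5 and 63.3 CPM against 151.9, 151.0 and 143.2 CPM, a log2 fold change of 1.16 (edgeR adjusted p = 2.615e-05). Fosl2, a Fos relative, had 0.85 (edgeR adjusted p = 0.0009161). The median over the 7 was 0.56, against -0.03 over all genes. The other 4 (Fosl1, Jund, Maff and Jdp2) did not pass, with values from -0.68 to 0.56. Atf3, Jun and Fosl2 were at 2.94, 1.29 and 0.81 without Sham_Saline replicate 2 and still called. All 3 also passed in the difference between injuries, with 1.68 for Atf3, 1.18 for Jun and 1.10 for Fosl2. Atf3 differed between the control operations as well: it stood at 12.2, 12.4 and 16.9 CPM in LAM, and Sham_Saline was higher by 2.17 (edgeR adjusted p = 4.091e-05), or 2.04 without replicate 2. In DCA it stood at 25.0, 39.6 and 28.2 CPM, each above each LAM sample, and did not pass (1.14, SE 0.19, edgeR adjusted p = 0.172).

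Of the EGR and NR4A relatives (Egr2, Egr4, Nr4a2, Nr4a3 and the co-repressors Nab1 and Nab2), 5 of 6 were tested and 0 passed by edgeR in any comparison. Of 20 feedback inhibitors, which limit MAP kinase or cytokine signalling or mRNA life, 18 were tested. Of these 1 was higher in SNA_Saline than in Sham_Saline (2.16% of all genes), the Btg2 relative Btg1 (0.74, edgeR adjusted p = 0.01833). Without Sham_Saline replicate 2 Btg1 was not called (0.71, edgeR adjusted p = 0.07326) and Socs3 was (1.07, 0.03563). In SNA_NAC against Sham_Saline, Trib1 (0.53) and Nfkbiz (0.77) were higher and Spry4 was lower (-0.53), with edgeR adjusted p of 0.04716, 0.04983 and 0.04838, and none of these 3 was called without Sham_Saline replicate 2 (0.07402, 0.2778 and 0.08641). Of 12 neuronal activity genes, 10 were tested and 2 were higher in SNA_Saline: the neurotrophin gene Bdnf (0.99, edgeR adjusted p = 0.0005423) and Crem (0.98, edgeR adjusted p = 0.004984), which encodes factors that bind the cAMP response element. Both calls held without Sham_Saline replicate 2, when the neuropeptide precursor gene Vgf (1.05, edgeR adjusted p = 0.008165) was called as well.

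Of 17 serum response genes, all tested, 4 were higher in SNA_Saline, against 2.16% of all genes. These were Klf6 (1.16), Nfil3 (1.05), Myc (0.62) and Klf10 (0.56), all transcription factors. The call of Klf10 was lost without Sham_Saline replicate 2 (edgeR adjusted p = 0.09767) and the other 3 held. Of 31 upstream kinases and transcription factors, among them Srf, Creb1 and the ERK kinases, 0 passed by edgeR in any comparison. Of 9 glucocorticoid-responsive genes, followed because Dusp1 is a known target of that hormone, 1 was higher in SNA_Saline, the cell cycle inhibitor Cdkn1a (0.63, and 0.66 without Sham_Saline replicate 2, edgeR adjusted p = 0.02539). The list's median was -0.43, and it turned to 0.06 without Sham_Saline replicate 2. Plin4, a lipid droplet protein gene, passed in the difference between injuries (-2.68, SE 0.61, edgeR adjusted p = 0.03858), with 1.52 for DCA against LAM and -1.17 for SNA_Saline against Sham_Saline, neither of which passed. Leaving out Sham_Saline replicate 2 gave a difference of -2.08 (edgeR adjusted p = 0.1114). The summed level of the 9 glucocorticoid-responsive genes was 490 to 767 CPM in Sham_Saline and 554 to 711 CPM in SNA_Saline. The lists of marker genes of other cell types, which include red blood cells, muscle and glia, had 0 genes called by edgeR in any comparison with all samples. Without Sham_Saline replicate 2, 1 of 7 satellite glia markers was called higher in SNA_Saline, against 1.31% of all genes. This was Glul (0.41, edgeR adjusted p = 0.04755), and the median of its list was -0.09. Medians of the marker lists with all samples were far from 0 for some: the 10 skeletal muscle genes had -1.45 in SNA_Saline, -2.03 in SNA_NAC and -0.29 in Sham_H202 against Sham_Saline, and 1.25 in Sham_Saline against LAM. Without Sham_Saline replicate 2 these medians turned to 1.304, 0.51, 2.33 and -1.43. The 5 vascular smooth muscle genes had -0.84, -0.52, -0.82 and 0.98 in the same 4 comparisons, and -0.35, -0.23, -0.40 and 0.30 without that sample. The 5 red blood cell genes had -0.33, -1.29, -1.16 and 0.73, and -0.24, -1.15, -1.13 and 0.60. The part of these cells in the members' values was not tested.

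**Figure D4:**
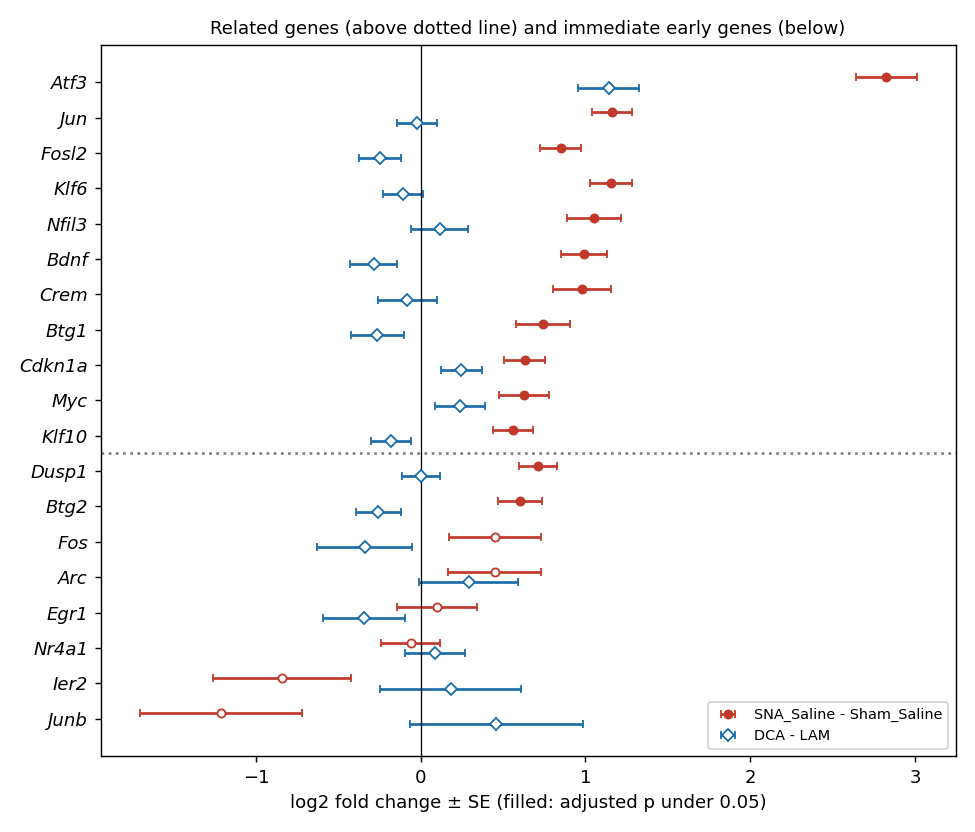
Fitted log2 fold changes (points) with their SE (bars) for the related genes that passed the test after sciatic axotomy (above the dotted line) and the 8 members (below), red circles for SNA_Saline against Sham_Saline and blue diamonds for DCA against LAM; filled symbols have an adjusted p under 0.05. No diamond is filled, and the filled circles run from 0.56 (Klf10) to 2.82 (Atf3).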

How the data were processed

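RNA from 18 pooled ganglia samples (6 groups of 3) was made into stranded mRNA libraries and sequenced from one end, per the labels' protocols. The authors deposited counts per gene (whole numbers, low genes removed) and FPKM per feature. The submitters' processing notes name TopHat2 2.0.12, HTSeq 0.6.0, edgeR 3.8.6 and build mm10; use of strand in counting is not given in the sources used here. The deposited counts went into edgeR 4.0.16 under R 4.3.3 (TMM, filterByExpr, which kept all 15730 genes, glmQLFit, glmQLFTest), all samples in 1 fit, 7 comparisons, after a check on simulated data. The SE of a log2 fold change is its size over the root of the F statistic. Fosb and Egr3 were tested in a fit with 15732 genes. Log2 CPM used a prior count of 2.

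Alternatives were RLE and upper-quartile factors, DESeq2 1.42.0, genes with at least 10 counts per sample, no filter at all, a fit to the compared groups alone, the replicate number as a block, GC and length offsets (splines with 5 degrees of freedom, longest GENCODE M21 transcript, 15648 genes), limma 3.58.1 on log2(FPKM + 1) and log2(FPKM + 0.1), a threshold of 0.10, and each sample left out. Fosb and Egr3, and the related genes without Sham_Saline replicate 2, were added after seeing the data. Named genes were all members, list genes with an adjusted p under 0.05 in any comparison (up to 6 per list), and the 8 genes of mean count at least 50 most like the members' mean, with or without group means. Genes overlapping a member were added. Members and lists were chosen with earlier results of these data known. Replicate numbers equal sequencing lanes, which pairs the samples; same-numbered samples deviated together unevenly (correlations from -0.647 to 0.095 for SNA_Saline and Sham_Saline, 0.244 to 0.422 for Sham_Saline and LAM). The labels do not say that samples are separate experiments beyond being different pools, so p-values measure the spread between these samples. Counting error is larger for Junb, Ier2 and Arc. Figures were drawn with matplotlib 3.10.9.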

Additional observations from a re-analysis of the deposited data

Results flagged for a closer look

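Dusp1 and Btg2 responded differently to the 2 injuries by the test of the difference itself. The sciatic log2 fold change exceeded the dorsal column one by 0.71 for Dusp1 (edgeR adjusted p = 0.03858) and by 0.86 for Btg2 (edgeR adjusted p = 0.03496). For Dusp1 each of the 3 SNA_Saline samples was above each Sham_Saline sample, while the DCA and LAM samples overlapped. For Btg2 each SNA_Saline sample was above and each DCA sample was below its control samples. The calls were lost in 11 of 25 alternatives for Dusp1 and in 12 of 25 for Btg2. Over these edgeR, DESeq2 and limma fits the adjusted p ran from 0.004531 to 0.1311 for Dusp1 and from 0.003788 to 0.1024 for Btg2.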

How the results depend on the processing

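Of 1098 recomputed log2 fold changes of members, 64 had the other sign, and 30 of these counted as reversals because one of the values exceeded its SE. For the number of members called, only the compared groups in the fit gave 0 (SNA_Saline against Sham_Saline), 0 (SNA_NAC against Sham_Saline) and 0 (difference between injuries), where the main values were 2, 1 and 2. For SNA_NAC against Sham_Saline, RLE factors gave 0, the replicate block 0, and GC and length offsets without and with the replicate block 2 and 2 (Arc and Dusp1). For the difference between injuries the replicate block gave 1 and limma on FPKM gave 1 and 1 at pseudocounts 1 and 0.1. DESeq2 gave 1 for Sham_Saline against LAM, without the share of all genes that it called. Leaving out 1 sample gave 1 to 3 members for SNA_Saline against Sham_Saline, 0 to 3 for SNA_NAC against Sham_Saline, 0 to 3 for Sham_Saline against LAM, and 0 to 3 for the difference between injuries; each 3 came without Sham_Saline replicate 1. The replicate block changed no other call of a member.

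Offsets for GC share and length, without and with the replicate block, turned Nr4a1 to 0.328 and 0.327 (SNA_Saline against Sham_Saline), 0.230 and 0.230 (SNA_NAC), 0.117 and 0.118 (Sham_H202), -0.201 and -0.202 (DCA against LAM), -0.257 and -0.258 (Sham_Saline against LAM) and 0.529 and 0.530 (difference between injuries). They turned Arc to 0.053 and 0.031 (Sham_H202), Ier2 to -0.310 and -0.286 (DCA against LAM) and 0.053 and 0.037 (difference between injuries), Dusp1 to -0.160 and -0.164 (DCA against LAM) and Egr1 to -0.133 and -0.146 (Sham_Saline against LAM). The cause was not tested.

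Leaving out 1 sample gave ranges that crossed 0, with one of the values above its SE, for Junb (-1.631 to 0.040 for SNA_Saline, -1.487 to 0.183 for Sham_H202), Nr4a1 (-0.247 to 0.206 for SNA_Saline, -0.405 to 0.048 for SNA_NAC, -0.453 to 0.001 for Sham_H202, -0.015 to 0.439 for Sham_Saline against LAM) and Arc (-0.735 to 0.053 for Sham_H202), each turned without Sham_Saline replicate 2. Ier2 in DCA against LAM ran from -0.461 to 0.429 and turned without DCA replicate 3. In the other changes of sign, as for Egr1 after sciatic axotomy (-0.188 to 0.288), the main value and the turned value were both within their SE. The number of genes called after sciatic axotomy with saline was 430 and ranged from 65 to 2548 over the alternatives. For SNA_NAC against Sham_Saline it was 522 (68 to 5861), for Sham_Saline against LAM 11 (1 to 5009) and for the difference between injuries 254 (55 to 4600). Depth limits Fosb and Egr3 most.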
